A study of Homo sapiens with 8 samples.

Results

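The 6 genes described here encode the subunits of myosin phosphatase and its close variants: the targeting subunits PPP1R12A, PPP1R12B and PPP1R12C, and the protein phosphatase 1 (PP1) catalytic subunits PPP1CA, PPP1CB and PPP1CC. They were chosen by name, by matching the Ensembl identifiers of the count table to gene symbols, and are 6 of 63140 genes in the table and 6 of 24057 genes that were tested. PPP1R12C is of particular interest because AAVS1, the site edited in every control library, lies inside it. All 6 had counts in all 8 libraries and passed the filter on low counts.

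The data are RNA counts from 8 pull-downs by chromatin isolation by RNA purification (ChIRP), in which biotinylated probes draw RNA and chromatin out of fixed, sonicated cells. The target of the probes is not given in the sources used here and no input library was used, so each value is an amount of RNA in a pull-down and not a cellular level. The cells carried the labels MOLM13 (replicate 1) or OCI-AML4 (replicate 2), which are established acute myeloid leukaemia lines, and were collected on day 3 after nucleofection. The 4 groups of 2 libraries were AAVS1 KO (genotype WT, Cas9 ribonucleoprotein with guides to AAVS1), HOTSCRAMBL KO (Cas9 ribonucleoprotein with guides to the long non-coding RNA gene HOTSCRAMBL), AAVS1 CBE (genotype WT, cytosine base editor with guides to AAVS1) and HOTSCRAMBL CBE (the same editor with guides to HOTSCRAMBL). Cas9 cuts DNA, and a cytosine base editor changes C to T without cutting both strands. No library was left unedited, and the edited fraction of cells is not given, so a lower level in a HOTSCRAMBL group and a higher level in its AAVS1 control cannot be told apart. The libraries are bulk samples, in which fewer cells of a type and less RNA per cell cannot be told apart either.

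Myosin phosphatase removes the activating phosphate from the regulatory light chain of myosin II and so relaxes actomyosin. A MYPT-family targeting subunit (PPP1R12A, PPP1R12B or PPP1R12C) binds the catalytic subunit, classically PPP1CB, and brings it to myosin and other substrates. Small inhibitor proteins of the PPP1R14 family act on the catalytic subunit. In blood cells this balance controls cortical tension, rounding in mitosis and migration.

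PPP1R12C (ENSG00000125503) lies on the minus strand of chromosome 19, 55090914 to 55117637 in GRCh38. AAVS1 is the usual name for a site in its intron 1, which in the GENCODE 29 transcript ENST00000263433.7 spans 55112796 to 55117222, or 4427 bases, the first of the introns between 22 exons. The position of the guides is not given in the sources used here. The coding junction that joins the 2 sides of that intron is shown because the transcript named above carries it once intron 1 is spliced out. It holds the last 30 bases of exon 1 in lower case (chr19:55117223-55117252) and the first 30 bases of exon 2 in capitals (chr19:55112766-55112795), minus strand.
PPP1R12C junction: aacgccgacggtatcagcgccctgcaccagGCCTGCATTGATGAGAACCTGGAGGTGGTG

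The count table does not measure this junction on its own. The annotation used for counting has a PPP1R12C exon from 55111376 to 55115516 (4141 bases). Read along the minus strand, it begins inside intron 1, covers exon 2 and continues beyond it. As a result 2721 of the 4427 bases of intron 1 (61.5%), from 55112796 to 55115516, count as exon. The PPP1R12C count can therefore include reads from unspliced or intron-retaining RNA, and it does not report the edit.

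The 3 targeting subunits are shown next at the codons of their PP1 docking motif, since this shared site is what makes them alternative partners of the same catalytic subunits. Translation of the longest coding transcript of each gene was searched for an RVxF-type motif, written as lysine or arginine, at most 1 further residue, valine, any residue except proline, and phenylalanine. Each protein held 1 match: residues 35 to 38 of 1030 in PPP1R12A, 53 to 56 of 1043 in PPP1R12B and 45 to 49 of 782 in PPP1R12C. Capitals mark the codons of the match, with 24 coding bases on either side, from GENCODE 29.
PPP1R12A: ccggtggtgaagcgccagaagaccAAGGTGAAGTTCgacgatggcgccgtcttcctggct
PPP1R12B: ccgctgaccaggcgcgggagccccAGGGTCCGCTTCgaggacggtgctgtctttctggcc
PPP1R12C: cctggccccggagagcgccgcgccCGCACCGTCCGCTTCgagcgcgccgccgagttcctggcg

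The promoter of PPP1R12C is printed because this gene had the largest fold changes among the targeting subunits. The window holds the 250 bases before the RefSeq start (GRCh38.p14, chr19:55117638-55117887, minus strand, 68.4% G or C). Capitals mark a 15-base sequence, ACTCCATTTCCCAGC, that stands in 2 copies beginning 250 and 114 bases before the start, and 1 palindromic cAMP response element, TGACGTCA, beginning 59 bases before it.
PPP1R12C promoter: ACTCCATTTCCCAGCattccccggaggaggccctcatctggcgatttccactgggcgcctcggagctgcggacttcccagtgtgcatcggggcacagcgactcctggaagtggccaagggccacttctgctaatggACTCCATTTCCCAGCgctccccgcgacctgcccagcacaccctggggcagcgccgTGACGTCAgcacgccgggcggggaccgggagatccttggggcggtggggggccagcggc
Of 34788 RefSeq windows of this length, 7 held the 15-base sequence as written, and its reverse complement was not searched. TGACGTCA was held by 570 (1.64%) on either strand. The element was in 1 of 1 PPP1R12C windows, 0 of 4 PPP1R12A, 0 of 3 PPP1R12B, 0 of 2 PPP1CB and 0 of 1 PPP1CC windows. PPP1CA was not matched in this table. The GC box GGGCGG, present in 42.6% of all windows on either strand, was in the PPP1R12C window, 3 of 4 PPP1R12A windows and the PPP1CC window, and in 0 of 3 PPP1R12B and 0 of 2 PPP1CB windows. The ETS-type letters CCGGAAG (8.5% of all windows) were in 0 of the members' windows. The motifs were chosen after the sequences had been seen, and a match is a description of letters only.

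Library totals ran from 20548300 to 37970163 counts. Levels are given as CPM, counts normalised to library size, after TMM scaling, which sets libraries on a common scale. The labelled cell type was checked on 12 myeloid markers, whose summed level was 1776 to 2470 CPM in the 8 libraries, with KIT under 1 CPM in every library. T cell and erythroid markers summed to at most 2.6 and 1.66 CPM, with CD3E, CD2, HBB and HBA2 at 0 in every library, while B cell markers summed to 6.35 to 11.4 CPM and epithelial and stromal markers to 3.22 to 7.62 CPM. Mitochondrial RNA was 6.77% to 7.23% of counts in the 4 AAVS1 libraries and 10.2% to 11.9% in the 4 HOTSCRAMBL libraries. Ribosomal protein genes were 1.18% to 1.39% in AAVS1, 3.42% to 3.86% in HOTSCRAMBL KO and 2.73% to 2.86% in HOTSCRAMBL CBE. These shares move with every difference between HOTSCRAMBL and AAVS1 below, and their part in the results was not tested.

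Among the targeting subunits, PPP1R12C was recovered less with HOTSCRAMBL than with AAVS1 edited, under both editors. It stood at 365 and 387 CPM in the AAVS1 KO pair against 235 and 242 in HOTSCRAMBL KO, and at 373 and 365 in the AAVS1 CBE pair against 168 and 135 in HOTSCRAMBL CBE, always replicate 1 first. The 4 AAVS1 libraries lay within a narrow band, both HOTSCRAMBL groups lay below it, and the HOTSCRAMBL groups did not overlap each other. The log2 fold change was −0.66 with KO (95% interval −0.90 to −0.41, SE 0.118, edgeR quasi-likelihood test, Benjamini-Hochberg adjusted p 3.64e-04) and −1.28 with CBE (−1.52 to −1.04, SE 0.118, adjusted p 1.93e-08). That is 0.63 and 0.41 of the control level. The KO call was lost when AAVS1 KO replicate 2 was left out (−0.55, adjusted p 0.071), and the CBE call was kept with each library left out in turn (−1.47 to −1.12).

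The reduction was larger with the base editor in the 8-library fit. The difference of the 2 effects was 0.62 on the log2 scale (95% interval 0.28 to 0.97, SE 0.167, edgeR Benjamini-Hochberg adjusted p 0.0363). Leaving out any 1 library other than HOTSCRAMBL CBE replicate 1 took the adjusted p above 0.05, with values from 0.47 to 0.73, and a fit with no replicate block (no term for the labelled line) gave an adjusted p of 0.121.

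The 2 AAVS1 controls did not differ detectably in PPP1R12C. Their group means were 376 ± 15.5 CPM with KO and 369 ± 5.76 CPM with CBE (SD, n = 2), closer than the spread of the KO pair. The log2 difference, KO over CBE, was 0.03 with a 95% interval of −0.20 to 0.26 (SE 0.111, edgeR adjusted p 0.997), and its sign turned to −0.07 without AAVS1 KO replicate 2. Both controls were edited at AAVS1, so this comparison says nothing about PPP1R12C in unedited cells. In order of level, the 2 controls were followed by HOTSCRAMBL KO (238 ± 5.26 CPM) and HOTSCRAMBL CBE (151 ± 23.3 CPM), and each of those steps exceeded the SDs.

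PPP1R12A, the widely expressed targeting subunit known as MYPT1, moved the other way with the base editor. Its gene, ENSG00000058272, lies on the minus strand of chromosome 12, 79773563 to 79935460. It stood at 196 and 155 CPM in the AAVS1 KO pair against 198 and 193 in HOTSCRAMBL KO, and at 163 and 160 in the AAVS1 CBE pair against 257 and 201 in HOTSCRAMBL CBE. The CBE groups did not overlap, while the lower HOTSCRAMBL KO library lay below the higher AAVS1 KO library. It rose with CBE by 0.50 on the log2 scale (95% interval 0.24 to 0.76, SE 0.126, edgeR Benjamini-Hochberg adjusted p 0.0109). Under KO its value was 0.16 (−0.11 to 0.43, adjusted p 0.563). The difference of the 2 effects, −0.34 (−0.72 to 0.04), had an edgeR adjusted p of 0.429, so the effects were not shown to differ. The CBE call was lost without TMM scaling (0.36, adjusted p 0.0754), with only the 4 libraries of the contrast (0.49, adjusted p 0.132) and when AAVS1 CBE replicate 1, AAVS1 CBE replicate 2 or HOTSCRAMBL CBE replicate 1 was left out (0.39, 0.60 and 0.38).

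PPP1R12B, the targeting subunit known as MYPT2 and best studied in heart and skeletal muscle, did not pass the test with either editor. Its gene, ENSG00000077157, lies on the plus strand of chromosome 1, 202348699 to 202592706. It stood at 222 and 217 CPM in the AAVS1 KO pair against 181 and 193 in HOTSCRAMBL KO, and at 244 and 211 in the AAVS1 CBE pair against 216 and 164 in HOTSCRAMBL CBE. The KO groups did not overlap and the CBE groups did. The values were −0.23 (95% interval −0.50 to 0.05) with KO and −0.25 (−0.51 to 0.00) with CBE, at edgeR adjusted p of 0.365 and 0.259, and ran from −0.39 to −0.08 and from −0.44 to −0.10 with each library left out. Without TMM scaling the CBE value was −0.39 and passed (adjusted p 0.045). Exons of SYT2 and of ENSG00000232626 overlap 10.8% of its exon bases.

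**Figure D1:**
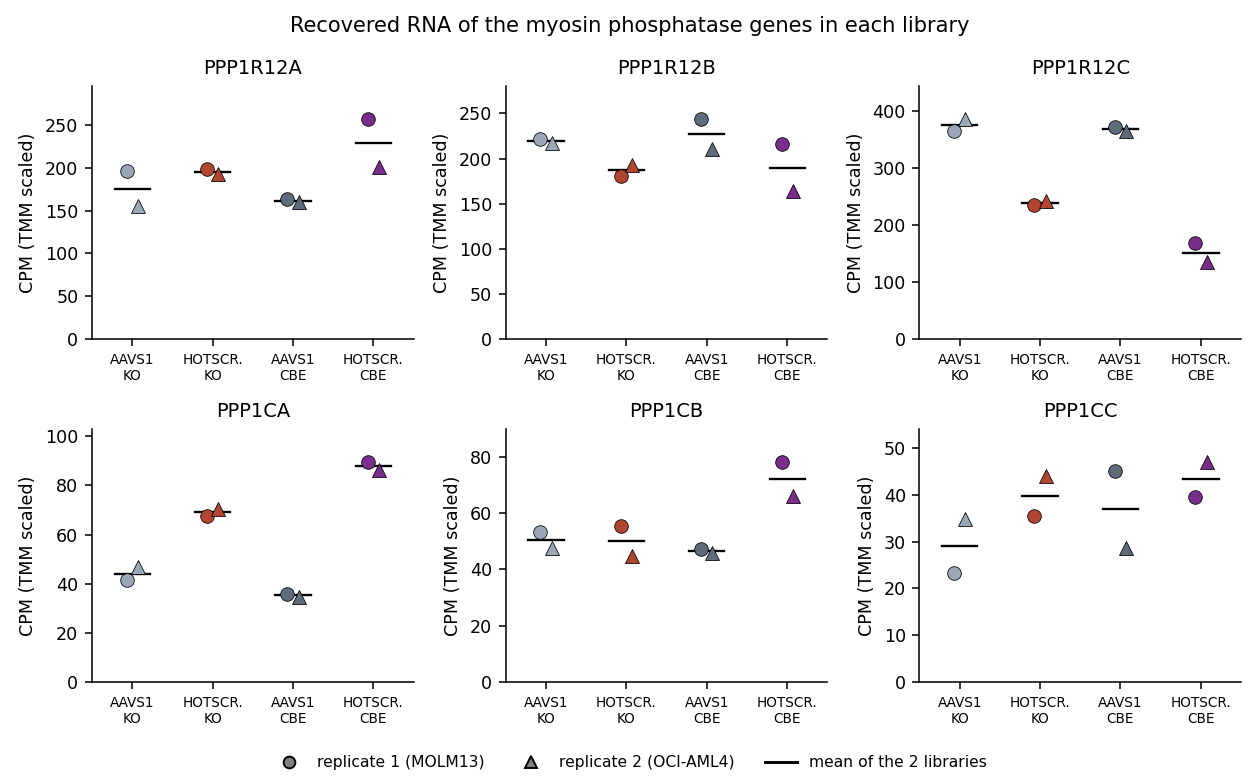
Level of each gene in CPM after TMM scaling (y axis, from 0, own scale per gene) in the 4 groups (x axis), with circles for replicate 1, triangles for replicate 2 and a line at the mean. PPP1R12C stands at 365 to 387 CPM in the AAVS1 libraries and at 135 to 242 in the HOTSCRAMBL libraries, while PPP1CA stands at 34.7 to 46.7 and at 67.7 to 89.6.

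Among the catalytic subunits, PPP1CA (PP1 alpha, a PP1 isoform with many partners) was recovered more with HOTSCRAMBL edited, under both editors. The gene, ENSG00000172531, lies on the minus strand of chromosome 11, 67398181 to 67421183. It stood at 41.4 and 46.7 CPM in the AAVS1 KO pair against 67.7 and 70.4 in HOTSCRAMBL KO, and at 35.8 and 34.7 in the AAVS1 CBE pair against 89.6 and 86.4 in HOTSCRAMBL CBE. Every HOTSCRAMBL library lay above every AAVS1 library. The log2 fold change was 0.65 with KO (95% interval 0.23 to 1.07, SE 0.205, edgeR Benjamini-Hochberg adjusted p 0.0459) and 1.32 with CBE (0.94 to 1.71, SE 0.188, adjusted p 1.65e-05). The KO call was lost without TMM scaling (0.49, adjusted p 0.146), without the low-count filter (adjusted p 0.0534), with limma-voom (adjusted p 0.0564), with only the 4 libraries of the contrast (adjusted p 0.17), with no replicate block (adjusted p 0.0663) and with any 1 library left out (0.56 to 0.76), whereas the CBE call was kept in every alternative run. The difference of the 2 effects, −0.67 (−1.25 to −0.09), had an edgeR adjusted p of 0.251. Exons of CARNS1, RAD9A and TBC1D10C, on the opposite strand, overlap 18% of PPP1CA exon bases. Reads falling on more than 1 gene were not counted.

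PPP1CB (PP1 beta, also called delta), the classical catalytic subunit of myosin phosphatase, rose with the base editor. The gene, ENSG00000213639, lies on the plus strand of chromosome 2, 28751640 to 28802940. It stood at 53.2 and 47.6 CPM in the AAVS1 KO pair against 55.2 and 44.8 in HOTSCRAMBL KO, and at 47.3 and 45.7 in the AAVS1 CBE pair against 78.1 and 65.9 in HOTSCRAMBL CBE. The CBE groups were apart and the KO groups interleaved. The log2 fold change was 0.63 with CBE (95% interval 0.25 to 1.02, SE 0.186, edgeR Benjamini-Hochberg adjusted p 0.0296) and −0.02 with KO (−0.46 to 0.42, adjusted p 0.983). The difference, −0.65 (−1.24 to −0.07), did not pass after adjustment (edgeR adjusted p 0.279). Exons of SPDYA, on the same strand, and of PPP1CB-DT, on the opposite strand, overlap 11.9% of PPP1CB exon bases. The CBE call was lost without TMM scaling (0.50, adjusted p 0.103), with no replicate block (0.64, adjusted p 0.0609), with only the 4 libraries of the contrast (0.63, adjusted p 0.13) and in 6 of 8 fits that left out 1 library, the 2 exceptions being the fits without a HOTSCRAMBL KO library.

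PPP1CC (PP1 gamma), an isoform known from chromosomes and nucleoli, did not pass the test with either editor and had the largest standard errors of the 6 genes (0.291 with KO and 0.247 with CBE). The gene, ENSG00000186298, lies on the minus strand of chromosome 12, 110719680 to 110742939. It stood at 23.2 and 34.8 CPM in the AAVS1 KO pair against 35.5 and 43.9 in HOTSCRAMBL KO, and at 45.1 and 28.7 in the AAVS1 CBE pair against 39.6 and 47 in HOTSCRAMBL CBE. The CBE groups overlapped, and the KO groups were separated by a gap much smaller than their spread. The values were 0.46 (95% interval −0.14 to 1.06) with KO and 0.19 (−0.31 to 0.70) with CBE, at edgeR adjusted p of 0.412 and 0.722. With each library left out the KO value ran from 0.18 to 0.82 and the CBE value from −0.24 to 0.78.

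**Figure D2:**
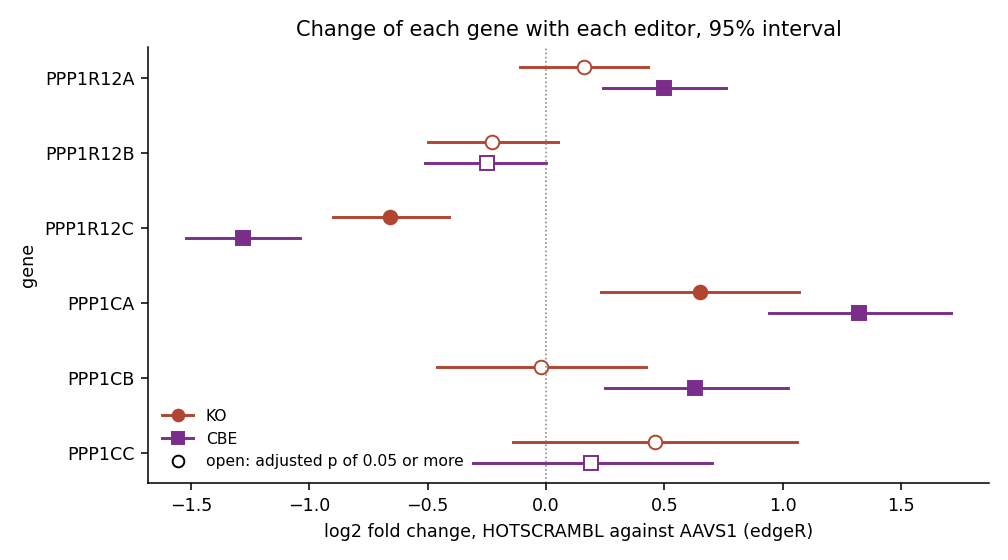
Log2 fold change of HOTSCRAMBL against AAVS1 (x axis) for each gene (y axis), with KO as circles, CBE as squares, 95% intervals as lines and filled symbols for an edgeR adjusted p under 0.05. PPP1R12C lies to the left of 0 with both editors (−0.66 and −1.28) and PPP1CA to the right (0.65 and 1.32).

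In all, 2 of the 6 genes passed with KO, 1 higher and 1 lower, beside 4.51% of all tested genes called higher and 4.25% called lower. With CBE 4 passed, 3 higher and 1 lower, beside 4.56% and 4.27%. Without TMM scaling the median of all genes shifted to −0.17 with KO and −0.15 with CBE, and the calls split into 840 higher and 1695 lower with KO and 782 and 1616 with CBE, in place of 1085 and 1023 and of 1096 and 1028. Directions are therefore relative to TMM scaling. The difference between editors was called for 1 of 6, PPP1R12C, beside 3.19% of all genes. The median log2 fold change of the 6 genes was 0.07 with KO and 0.35 with CBE, against −0.01 and −0.02 over all tested genes. Between the 2 controls 0 of 6 passed and 0% of all genes were called by edgeR, with 0 members and 918 genes at an unadjusted p under 0.05. In the same contrast limma-voom called 0 genes and DESeq2 called 16 higher and 19 lower. Between the labelled lines 0 of 6 passed, beside 0.495% of all genes, and 1 member, PPP1R12A, had an unadjusted edgeR p under 0.05 (0.20 higher in MOLM13 on the log2 scale, p 0.0431, adjusted p 0.527).

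Compared per kilobase of exon, PPP1R12C had the highest level of the 3 targeting subunit RNAs in both control groups, and in HOTSCRAMBL CBE it was level with PPP1R12A. It stood at 48.2 ± 1.98 CPM per kb in AAVS1 KO and 47.3 ± 0.739 in AAVS1 CBE, against 14.8 ± 2.45 and 13.6 ± 0.171 for PPP1R12A and 10.4 ± 0.158 and 10.8 ± 1.11 for PPP1R12B (SD, n = 2). In HOTSCRAMBL CBE the 3 stood at 19.4 ± 2.98, 19.3 ± 3.33 and 9 ± 1.72, and the first 2 differed by less than their SDs. Among the catalytic RNAs in HOTSCRAMBL CBE, PPP1CA had 21.6 ± 0.559 CPM per kb, PPP1CB 9.74 ± 1.16 and PPP1CC 6.27 ± 0.757. These levels divide by all annotated exon bases, including the PPP1R12C exon that reaches into intron 1.

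Ratios within a library do not depend on scaling between libraries. PPP1R12C made up 63.3% and 68% of the summed CPM per kb of the 3 targeting subunits in the AAVS1 KO pair against 54.3% and 55% in HOTSCRAMBL KO, and 65.4% and 66.6% in the AAVS1 CBE pair against 40.3% and 41.1% in HOTSCRAMBL CBE. The raw count ratio of PPP1R12C to PPP1R12A was 1.86 and 2.49 in the AAVS1 KO pair against 1.18 and 1.26 in HOTSCRAMBL KO, and 2.29 and 2.28 in the AAVS1 CBE pair against 0.653 and 0.671 in HOTSCRAMBL CBE. Both measures were lower in every HOTSCRAMBL library than in every AAVS1 library, and were lowest in HOTSCRAMBL CBE.

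The summed targeting subunits were also lower relative to the catalytic subunits in every HOTSCRAMBL library. Their ratio per kb was 3.56 and 3.18 in the AAVS1 KO pair against 1.89 and 1.9 in HOTSCRAMBL KO, and 3.37 and 3.73 in the AAVS1 CBE pair against 1.39 and 1.14 in HOTSCRAMBL CBE. Within the catalytic set PPP1CA took 49% and 50% in the AAVS1 KO pair against 56.9% and 58.2% in HOTSCRAMBL KO, and under CBE 40.5% and 45.1% in the controls against 57.4% in both HOTSCRAMBL libraries. These ratios describe the libraries and were not tested.

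**Figure D3:**
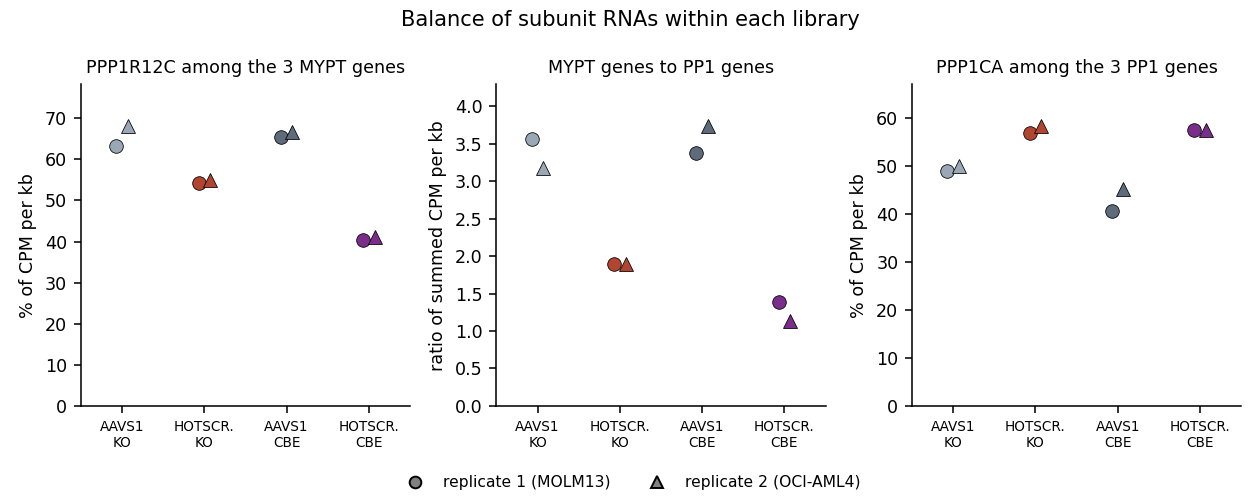
Share of PPP1R12C among the 3 MYPT genes, ratio of MYPT to PP1 genes, and share of PPP1CA among the 3 PP1 genes, all from CPM per kb (y axes, from 0), for each library in the 4 groups (x axes), with circles for replicate 1 and triangles for replicate 2. PPP1R12C falls from 63.3% to 68% in the AAVS1 libraries to 40.3% to 41.1% in HOTSCRAMBL CBE.

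The level of PPP1R12C across the 8 libraries was set beside that of the 12028 tested genes above the median level. The most alike by Pearson r of log2 CPM were ENSG00000205018 (0.987), TUBGCP6 (0.982), a gamma-tubulin complex component, CCDC78 (0.982), ATAD3A (0.978) and COX19 (0.976). TUBGCP6 stood at 310 ± 15.8, 195 ± 9.16, 338 ± 27.3 and 138 ± 19.6 CPM, in the order control and HOTSCRAMBL for KO and then for CBE (SD, n = 2), with log2 fold changes of −0.67 and −1.29 (edgeR adjusted p 2.65e-04 and 9.40e-09). CCDC78 was also called with both editors (−0.97 and −1.50). ENSG00000205018 (−0.95 and −2.80) and COX19 (−0.32 and −0.79) were called with CBE only, and ATAD3A (−0.22 and −0.54) with neither. A high r therefore did not mean a change of like size. Among the members, r with PPP1R12C was 0.731 for PPP1R12B, −0.561 for PPP1CC, −0.757 for PPP1R12A, −0.785 for PPP1CB and −0.930 for PPP1CA. The 8 libraries share the group structure, so these coefficients are descriptions.

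Genes around PPP1R12C were examined because both controls were edited at this locus. Within 500 kb of the ends of the gene 43 other genes were tested. With KO 2 passed as higher (4.65%) and 4 as lower (9.3%), with a median of −0.18, and with CBE 1 (2.33%) and 3 (6.98%), with a median of −0.11. On the whole of chromosome 19, with 1583 tested genes, 5.69% were higher and 7.52% lower with KO, with a median of −0.08. With CBE 4.42% were higher and 8.34% lower, with a median of −0.19. Over all tested genes 4.51% were higher and 4.25% lower with KO, and 4.56% and 4.27% with CBE. The shares were not compared by a test, and the counts are not read as a result about the window. EPS8L1, an actin regulator whose nearest exon is 2991 bases from PPP1R12C, was lower with both editors, by −0.81 (SE 0.257, edgeR adjusted p 0.0475) and −0.95 (SE 0.239, adjusted p 0.0101). RDH13, 19623 bases away, was lower as well (−0.69 and −0.56, edgeR adjusted p 0.0218 and 0.0326). Calls of neighbours were not checked in the alternative runs.

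The other calls in that window lay farther off. PPP6R1, a regulatory subunit of the PP6 phosphatase, and KMT5C, a histone H4 methyltransferase, were lower with KO (−0.50 and −0.85, edgeR adjusted p 0.00201 and 0.0311), and BRSK1 was lower with CBE (−2.77, adjusted p 0.0121). The ribosomal protein gene RPL28 was higher with both editors (1.92 and 1.10, edgeR adjusted p 5.16e-13 and 3.02e-08) and UBE2S, a ubiquitin-conjugating enzyme of mitosis, with KO (1.12, adjusted p 4.02e-05). The antisense-strand gene ENSG00000287170, which overlaps the start of PPP1R12C, stood at 1.97 to 6.15 CPM in the group means and did not pass (−0.63 and −0.12, edgeR adjusted p 0.664 and 0.961). On the side of higher coordinates the nearest tested gene, ENSG00000267507, was at 0 in 6 of 8 libraries and gives no usable fold change.

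**Figure D4:**
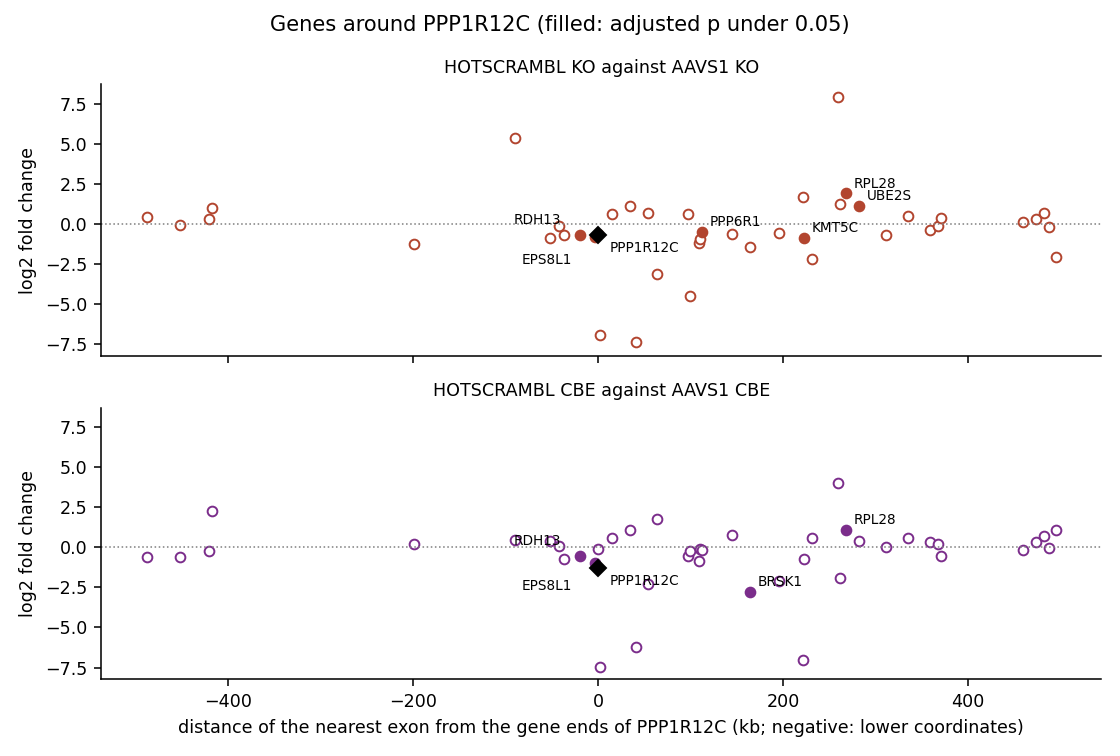
Log2 fold change (y axis) of the 43 tested genes within 500 kb of PPP1R12C against the distance of their nearest exon in kb (x axis), with KO above, CBE below, filled circles for an edgeR adjusted p under 0.05 and a diamond for PPP1R12C. Next to PPP1R12C, EPS8L1 and RDH13 are filled below 0 with both editors.

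The called genes of nonmuscle myosin II were higher, and MYO18A, outside that class, was lower. Of 11 genes in a list of nonmuscle myosin II, its light chain kinases and MYO18A, 10 were tested. With KO 1 was higher and 1 lower (20% called, median 0.22), and with CBE 3 were higher and 1 lower (40%, median 0.44). Of all tested genes 4.51% were called higher and 4.25% lower with KO, and 4.56% and 4.27% with CBE. The shares were not compared by a test. MYH9, the heavy chain of nonmuscle myosin IIA, rose with CBE from 1179 ± 66.8 to 1508 ± 65.6 CPM (0.35, edgeR adjusted p 0.00358). The light chain genes MYL6B (0.74 with both editors, edgeR adjusted p 0.0307 and 0.0139) and MYL12A (1.22 with CBE, adjusted p 0.0291) were higher, and MYO18A, an unconventional myosin, was lower with both editors (−0.95 and −0.49, adjusted p 4.05e-07 and 0.00203).

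Of 9 MYPT-related and phosphatase-bound proteins, all tested, 0 were higher and 2 lower with KO, and 4 higher and 1 lower with CBE (medians −0.18 and 0.33). That was 22.2% called with KO and 55.6% with CBE. Over all tested genes the shares were 4.51% higher and 4.25% lower with KO, and 4.56% and 4.27% with CBE. The shares were not compared by a test. The ezrin, radixin and moesin proteins link membrane to actin and are dephosphorylated by myosin phosphatase. MSN and RDX rose with CBE (0.68 and 0.80, edgeR adjusted p 1.03e-04 and 1.45e-04). EZR fell with KO (−0.75, edgeR adjusted p 0.00604) and rose with CBE (0.79, adjusted p 5.69e-04). HDAC7, a histone deacetylase bound by the phosphatase, was lower with KO (−0.95, edgeR adjusted p 0.0185), and PPP1R16A, a membrane-anchored MYPT relative, was lower with CBE (−1.18, adjusted p 2.43e-04).

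Of 44 other PP1 regulatory subunits 43 were tested, with 2 higher and 4 lower under KO and 2 higher and 3 lower under CBE (medians −0.16 and 0.10). That was 14% called with KO and 11.6% with CBE. Over all tested genes 4.51% were higher and 4.25% lower with KO, and 4.56% and 4.27% with CBE. PPP1R15A (GADD34), which directs PP1 to the translation factor eIF2 alpha, fell from 898 ± 86.6 to 525 ± 117 CPM with KO and from 904 ± 123 to 553 ± 46.9 with CBE (−0.79 and −0.71, edgeR adjusted p 1.14e-06 and 5.46e-06). PPP1R37 (−1.10 and −0.85) and PHACTR3 (−0.84 and −1.07) were lower with both editors, at edgeR adjusted p of at most 0.00547. CSRNP2 was higher with KO (0.93, edgeR adjusted p 1.82e-06) and PPP1R18, an actin-binding PP1 partner, with CBE (0.50, adjusted p 0.0269). Of 12 catalytic subunits of other serine/threonine phosphatases, 1 passed with KO, PPP3CA of calcineurin (−0.91, edgeR adjusted p 0.00579), and 0 with CBE. Those are 8.33% and 0% of that list, beside the same shares of all tested genes. The counts are not read as a result about either list.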

How the data were processed

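RNA from 8 ChIRP pull-downs (4 groups of 2 libraries) was analysed from 1 table of raw counts per gene deposited by the authors. Per the file headers, the authors made the counts with featureCounts 2.0.6 on Ensembl 112 annotation of GRCh38, with no strand option, without reads that mapped to several places or overlapped several genes, and with the 2 reads of a pair counted separately, so 71.8% to 74.9% of values from 1 to 20 were even in each library. The aligner version and duplicate removal are not given in the sources used here. The table held 63140 genes, 35176 with a count. Records of 2 genes broken over several lines were rejoined, and 0 per-sample columns stayed unused. Symbols were matched to 42291 identifiers (66.98%), among them all 6 members. Without strand, reads of antisense genes cannot be told apart.

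Groups came from sample titles. Genes kept by filterByExpr (minimum count 10, 24057 genes) were tested with edgeR 4.0.16 (R 4.3.3) by the robust quasi-likelihood F-test after TMM scaling, with terms for the 4 groups and the labelled line (3 residual degrees of freedom) and Benjamini-Hochberg adjustment over all tested genes at 0.05. Spread was shared across genes, so the 95% intervals and p-values of the members rest on 25.2 to 25.7 degrees of freedom. Each edgeR SE was the absolute log2 fold change divided by the square root of F. The script was tested on simulated data. The line term pairs the libraries, because replicate 1 is labelled MOLM13 and replicate 2 OCI-AML4 in each group. Deviations from the group means of libraries with the same label correlated with r between 0.00851 and 0.0245, and between 0.0411 and 0.117 when restricted to genes above the median level. These correlations are weak, and 0.495% of tested genes were called between the labels. The pairing therefore rests on the labels, and whether the libraries come from different lines was not tested. The labels do not say that libraries came from separate cultures, so p-values measure the spread between these samples, and each lone line per replicate number means that line and replicate cannot be told apart. The common biological coefficient of variation was 0.708. Member counts were 593 to 12447 per library, and the number of libraries limits the precision.

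The members, gene lists and tests were chosen with earlier results of these data known. Named genes were all members; per list, at most the 4 called genes with the smallest p in each contrast; called neighbours within 500 kb and the nearest on either side; and the 5 genes most like PPP1R12C. Alternatives were DESeq2 size factors, no TMM, no filter, DESeq2 1.42.0, limma-voom (limma 3.58.1), no line term, the 4 libraries of a contrast alone and each library left out. An older edgeR estimate was added after seeing the data. Coding junctions and codons came from GENCODE 29, and promoters from RefSeq (GRCh38.p14). Some results on regulators of the phosphatase are not reported here.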

Additional observations from a re-analysis of the deposited data

Results flagged for a closer look

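For the 9 genes given here, which leave out those not reported, the change with HOTSCRAMBL editing differed between the 2 editors. This was a direct test of that difference (log2 fold change with KO minus that with CBE, edgeR, Benjamini-Hochberg adjusted p under 0.05). The genes were picked because they passed, so their number is not a result. Over all tested genes 3.19% were called in this contrast. PPP1R12C was the only member among the 9, at 0.62 (edgeR adjusted p 0.0363), because its reduction was smaller with KO. The other genes were not checked in the alternative runs.

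Among proteins bound by myosin phosphatase the difference was −1.54 for EZR (edgeR adjusted p 1.34e-04), which fell with KO and rose with CBE, −1.29 for the mitotic kinase PLK1 (adjusted p 0.00449) and −0.83 for RDX (adjusted p 0.0144).

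Among other PP1 regulatory subunits the difference was 0.72 for CSRNP2 (edgeR adjusted p 0.00987) and −1.26 for CDCA2, which brings PP1 to chromatin in mitosis (adjusted p 0.0126). The neighbouring gene RPL28 differed by 0.82 (edgeR adjusted p 0.00107). Of the myeloid markers, LYZ (lysozyme) differed by 1.97 (edgeR adjusted p 8.25e-08), having risen from 130 ± 14.9 to 604 ± 139 CPM with KO, and CSF1R, the receptor of a macrophage growth factor, by 1.22 (adjusted p 0.0093).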

How the results depend on the processing

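PPP1R12C with CBE and PPP1CA with CBE kept their direction and their call in every alternative run. The number of members called with KO was 2 and became 1 without TMM, without the low-count filter, with limma-voom, with no replicate block and with only the 4 libraries of the contrast, and 0 to 1 with each library left out (0 without AAVS1 KO replicate 2). With CBE it was 4 and became 3 with no replicate block and 3 without TMM, where PPP1R12A and PPP1CB were lost and PPP1R12B was gained. It became 2 with only the 4 libraries, and 2 to 4 with each library left out. For the difference it was 1 and became 3 with DESeq2, which added PPP1CA (−0.64, adjusted p 0.0202) and PPP1CB (−0.61, adjusted p 0.0415), and 0 to 1 with each library left out. DESeq2 on the same genes called 2046 higher and 2185 lower genes with KO, and the fit of only 4 libraries called 430 and 231. The fit of 4 libraries has fewer samples. The cause of the other changes was not tested.

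The replicate block, here the term for the labelled line, decided several calls. Over all genes, calls with KO went from 1085 higher and 1023 lower to 933 and 803 with no replicate block. For the difference they went from 419 and 348 to 287 and 216. With no replicate block the difference called 0 members, and PPP1R12C stood there at 0.62 (edgeR adjusted p 0.121). The KO call of PPP1CA (adjusted p 0.0663) and the CBE call of PPP1CB (adjusted p 0.0609) were lost as well, and no other call of a member changed.

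With each library left out, PPP1R12C ran from −0.74 to −0.55 with KO, from 0.47 to 0.81 in the difference, from −0.07 to 0.11 between controls and from −0.03 to 0.09 between lines. Signs also turned for values that passed no test. PPP1CB with KO ran from −0.09 to 0.05 and was 0.01 with DESeq2 and with its size factors. PPP1CC ran from −0.24 to 0.78 with CBE, −0.31 to 0.71 in the difference, −0.83 to 0.19 between controls and −0.36 to 0.04 between lines. PPP1R12B ran from −0.13 to 0.21 in the difference and −0.12 to 0.03 between controls, and PPP1CA from −0.06 to 0.02 between lines. A group reduced to 1 library is assumed to vary like the others.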

Other observations

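PPP1R3B, a glycogen-targeting subunit of PP1, lay outside the naming rule and was chosen after its values were seen. Its mean was 16 ± 0.733 CPM in the AAVS1 KO pair against 33.9 ± 4.15 in the HOTSCRAMBL KO pair (SD, n = 2), and 25.5 ± 1.13 against 46.7 ± 12.7 with CBE. It rose with both editors (1.08 and 0.84, edgeR Benjamini-Hochberg adjusted p 0.029 and 0.0272).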
